A study of Mus musculus with 6 samples.

Results

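The nuclear genome of the mouse encodes most of the proteins of the respiratory chain, and their transcripts were examined in 6 RNA-seq libraries of a cell line labelled HL-1. Genes were taken by symbol: the Nduf subunits of complex I, the 4 Sdh genes of complex II, Uqcr genes and Cyc1 for complex III, the electron carrier Cycs, the Cox4 to Cox8 subunits of complex IV and the Atp5 genes of complex V, without the mitochondrial chromosome. This gave 90 of the 21959 genes in the table, of which 39 belonged to complex I, 4 to complex II, 9 to complex III, 19 to complex IV and 18 to complex V, with Cycs apart. Of the 90 genes, 83 had enough reads to be tested and 7 did not. HL-1 is a line derived from mouse atrial cardiomyocytes. The line carries a wild type genotype in the labels, and both groups went through oxygen-glucose deprivation and reoxygenation (OGD/R), which imitates ischemia and reperfusion in a dish, with 4 h in glucose-free medium under nitrogen and carbon dioxide and 24 h back in complete medium with oxygen. The OGD/R group (3 libraries) is labelled with OGD/R alone, and the phillyrin group (3 libraries) was given 50 µg/mL phillyrin, a lignan glucoside, during 8 h before and 16 h together with OGD/R. A vehicle group and cells without OGD/R were not analysed here, so phillyrin cannot be told apart from its solvent, and nothing in the text below measures the effect of OGD/R itself. The labels do not say where those 16 h fall. Nor do they state separate cultures for the libraries of a group, so the spread behind each p-value is the one among these libraries and could be technical.

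The respiratory chain sits in the inner mitochondrial membrane. Complex I takes electrons from NADH and complex II from succinate, both pass them through ubiquinone to complex III, and cytochrome c carries them on to complex IV, which reduces oxygen. Complexes I, III and IV pump protons, and complex V, the ATP synthase, uses the proton gradient to make ATP. Apart from complex II, each complex combines subunits encoded in the nucleus with subunits encoded in mitochondrial DNA, and heart muscle is known for its high content of all of them.

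The libraries held between 14761317 and 22123648 counts, and the respiratory chain genes took between 0.674% and 0.740% of them. Phillyrin replicate 3 was the shallowest library, had the largest share of mitochondrially encoded reads (4.27%, against 3.18% to 3.59% in the other 5) and differed most from the libraries of its own group, with a chi-square per degree of freedom of 5.37 and 5.06 against 2.04 to 3.81 for the other replicate pairs. The label of a cardiac cell was not borne out by cardiac transcripts: 10 of 12 cardiomyocyte markers stayed below 0.5 CPM (CPM is a gene's reads scaled to the size of its library) in every library, and Myh6, Myh7, Actn2 and Mybpc3 had no read. All 9 myoblast markers were above that level in at least 1 library. The cells are therefore called by their label only. The summed cardiomyocyte markers, nearly all of it Tnnt2, went from 119 to 122 CPM in OGD/R to 149 to 167 CPM with phillyrin, the summed fibroblast markers from 2280.2 to 2321 CPM down to 1796 to 1949 CPM, and the summed myoblast markers lay at 1123 to 1142 and 1089 to 1141 CPM. The myoblast sum was mostly Des and held markers that moved both ways. Mean Myod1 went from 83.1 to 97.2 CPM, while Myf5 went from 64.2 to 52.5 CPM and Chrna1 from 304 to 271 CPM. Among the fibroblast markers, Col3a1 went from 1394 to 1099 CPM, while Col1a1 stood at 254 and 246 CPM and Lum had 0 reads. The part of such shifts in the results below was not tested.

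With phillyrin, 18 of the 83 tested respiratory chain transcripts fell and 3 rose (edgeR quasi-likelihood test, Benjamini-Hochberg adjusted p under 0.05 over all 11658 genes tested). Of all genes tested, 31.7% were called, 16.0% as higher and 15.6% as lower, so the chain as a whole, with 25.3% called, was not called more often than all genes, while 21.7% of it was lower. The fall was uneven over the complexes. ATP synthase had 9 of 17 transcripts lower and 0 higher, complex I had 6 of 37 lower and 1 higher, complex III had 2 of 9 lower, complex II had 0 of 4 changed, and complex IV had 0 of 15 lower and 2 higher. Ndufa4, which fell, was counted in complex I by its name, though it is now known as a subunit of complex IV. The changes were small, since the median log2 fold change of the 18 that fell was -0.24, and over all 83 it was -0.05 against -0.01 over all genes tested. In bulk RNA, fewer cells that express a gene and less of its RNA per cell cannot be told apart. The libraries of the groups did not overlap for 20 of the 83 genes in the direction of lower and for 6 in the direction of higher, where the shares over all genes tested were 21.6% and 21.5% (43.1% in either direction). For 1 gene taken alone, 3 libraries against 3 limit an exact permutation test to a two-sided p of 0.1 or more. The number that fell depended on single libraries: leaving out phillyrin replicate 3 gave 7, leaving out OGD/R replicate 1 gave 9 and leaving out OGD/R replicate 2 gave 10. Of all genes tested, 13.69%, 11.98% and 12.47% fell in those fits, so the chain had no larger share of lower genes there than all genes. Each of the other omissions gave 14 to 19, a larger share than the 12.47% to 14.12% of all genes. Leaving out phillyrin replicate 1 gave 6 that rose, where 16.1% of all genes rose. Scaled by library size only, 27 fell and 1 rose, where 21.1% of all genes fell and 11.3% rose. Over all genes 34.8% of the calls were then higher, where the TMM scaling had 50.6%.

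**Figure D1:**
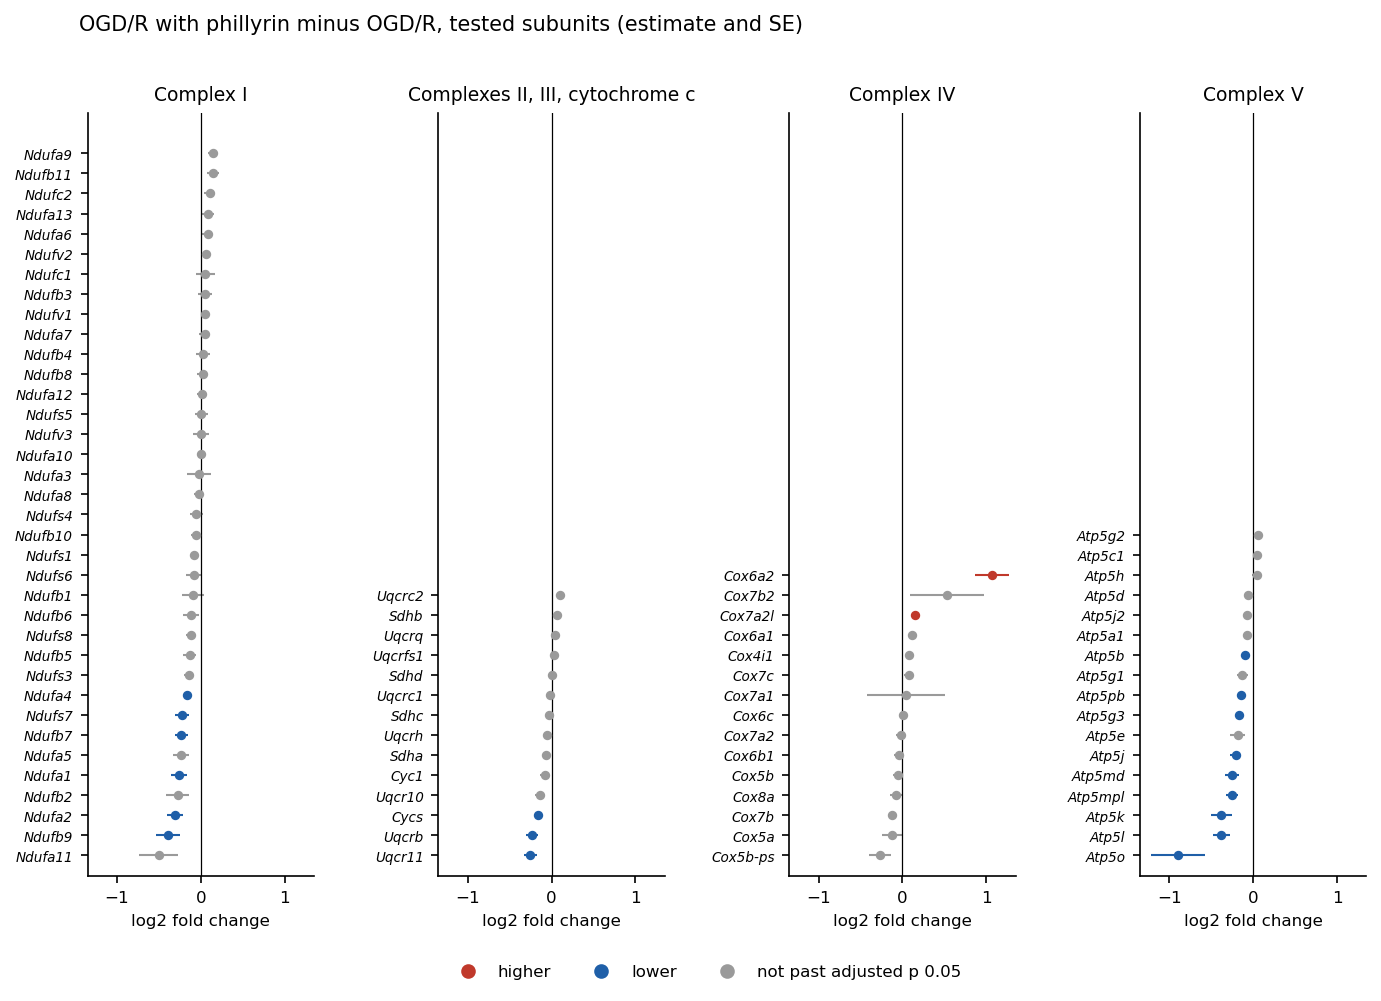
Log2 fold change between phillyrin and OGD/R alone (horizontal axis, above 0 where phillyrin is higher) for 82 of the 83 tested respiratory chain genes, sorted within each panel, with the standard error as a bar (3 libraries a group). Of 17 complex V transcripts, 9 lie in the lower, blue set, while complex IV has 0 in it and Cox6a2 stands to the far right. Ndufa4 is drawn in complex I by its name.

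Complex V was the complex with the largest share of lower transcripts, 52.9% of those tested against 15.6% of all genes. The enzyme is a rotary machine made of the catalytic F1 head, a membrane ring of c subunits that turns, a peripheral stalk that holds the head still, and small membrane subunits that help enzymes pair into dimers. These roles were assigned after the values had been seen. In the F1 head 1 of 5 transcripts fell, in the c-ring 1 of 3, in the peripheral stalk 3 of 4 and among the small membrane subunits 4 of 5. Leaving out phillyrin replicate 3, or either of OGD/R replicates 1 and 2, gave 5 complex V transcripts that fell. Of all genes tested, 13.69%, 11.98% and 12.47% fell in those fits.

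Positions of genes are given from the table, on build GRCm39, and span the whole gene. In the head, Atp5b (ENSMUSG00000025393, chromosome 10, 127919142 to 127926260), the catalytic beta subunit, stood at 1500.0, 1488 and 1487 CPM under OGD/R alone and 1354, 1435 and 1404 CPM when phillyrin was given. All 3 phillyrin values were below the OGD/R values, by a small margin (log2 fold change of -0.09 with an SE of 0.03, adjusted p = 0.0234 by edgeR). This call was lost when any of the 3 OGD/R libraries or phillyrin replicate 1 was left out, with adjusted p-values up to 0.136. Its partner Atp5a1, the alpha subunit, was at 606 ± 11.1 and 574 ± 27.7 CPM (SD, n = 3 each) and did not pass (log2 fold change of -0.08 with an SE of 0.04, adjusted p = 0.0903 by edgeR), though it did when scaled by library size only (edgeR adjusted p = 0.00588). The gamma subunit Atp5c1, the central shaft, had a log2 fold change of 0.05 and the small subunits Atp5d and Atp5e had -0.07 and -0.18, none of them past the threshold.

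The c-ring protein is encoded by a set of 3 genes that make the same mature protein from different precursors. Atp5g3 (ENSMUSG00000018770, chromosome 2, 73738791 to 73741670) gave 200.2, 195 and 202 CPM under OGD/R alone and 176, 184 and 169.7 CPM when phillyrin was given. Every phillyrin value was below every OGD/R value, and the fall passed in all 13 alternative analyses (log2 fold change of -0.17 with an SE of 0.04, adjusted p = 0.000938 by edgeR). Atp5g2 was at 136 ± 4.91 and 141 ± 7.23 CPM (log2 fold change 0.06, edgeR adjusted p = 0.328). Atp5g1 was at 66.1 ± 1.45 and 60.2 ± 6.58 CPM and missed the threshold (edgeR adjusted p = 0.113), but passed without phillyrin replicate 2 (0.0151) and when scaled by library size only (0.0406). The differences between these genes in their response were not tested.

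In the peripheral stalk, Atp5pb (ENSMUSG00000000563, chromosome 3, 105850014 to 105867415), the long b subunit, had 257, 256 and 254 CPM under OGD/R alone and 234, 241 and 219 CPM when phillyrin was given. The groups did not overlap and phillyrin replicate 3 was lowest (log2 fold change of -0.14 with an SE of 0.04, adjusted p = 0.00426 by edgeR), and the call held in all 13 alternatives. The gene is overlapped on the other strand by Wdr77, which was higher with phillyrin (log2 fold change 0.16, edgeR adjusted p = 0.0105). Atp5j (ENSMUSG00000022890, chromosome 16, 84624754 to 84632513), coupling factor 6, had 58.7, 64.6 and 61.2 CPM under OGD/R alone and 58.7, 52.8 and 47.8 CPM when phillyrin was given. Phillyrin replicate 1 was level with the lowest OGD/R library, so the groups touched (log2 fold change of -0.21 with an SE of 0.06, adjusted p = 0.00999 by edgeR), and the call ended when OGD/R replicate 2 was left out (0.0868) or when phillyrin replicate 3 was (0.0815). Atp5o, the OSCP subunit that ties the stalk to the head, had only 1.74 ± 0.410 and 0.905 ± 0.224 CPM (SD, n = 3 each). The table holds a second gene of the same name that overlaps it on the same strand and had 0 reads (a limit of 0.0269 CPM over the 6 libraries), so the low level and the fall (log2 fold change of -0.90 with an SE of 0.33, adjusted p = 0.0317 by edgeR) are uncertain. The Atp5o call was also lost with DESeq2 (adjusted p = 0.0657) and when OGD/R replicate 1 or either of phillyrin replicates 1 and 3 was left out. Atp5h, the d subunit, did not pass (92.6 ± 0.467 and 95.0 ± 6.18 CPM).

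The small membrane subunits are short proteins that sit at the edge of the membrane part. Atp5l (ENSMUSG00000038717, chromosome 9, 44823855 to 44832040), the g subunit, had 15.6, 16.6 and 15.2 CPM under OGD/R alone and 13.4, 12.1 and 10.8 CPM when phillyrin was given. The fall was seen in all 3 phillyrin libraries and passed in all 13 alternatives (log2 fold change of -0.38 with an SE of 0.10, adjusted p = 0.00459 by edgeR), but 9 other annotated genes hold a stretch nearly identical to its mRNA, so its reads are uncertain. Atp5k, the e subunit, had 10.4, 9.60 and 8.84 CPM under OGD/R alone and 7.31, 7.54 and 7.30 CPM when phillyrin was given. Its phillyrin values lay close together and below all OGD/R values (log2 fold change of -0.38 with an SE of 0.13, adjusted p = 0.0199 by edgeR). Atp5mpl, the 6.8-kDa proteolipid, went from 38.3 ± 2.01 to 32.0 ± 3.40 CPM and Atp5md, called DAPIT, from 50.2 ± 4.03 to 42.1 ± 6.34 CPM (SD, n = 3 each), and phillyrin replicate 3 was lowest for both. Without that library neither passed (edgeR adjusted p = 0.0764 and 0.137). Atp5k lost its call without OGD/R replicate 1 or 2, and so did Atp5md. The f subunit Atp5j2 did not pass (log2 fold change -0.07).

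**Figure D2:**
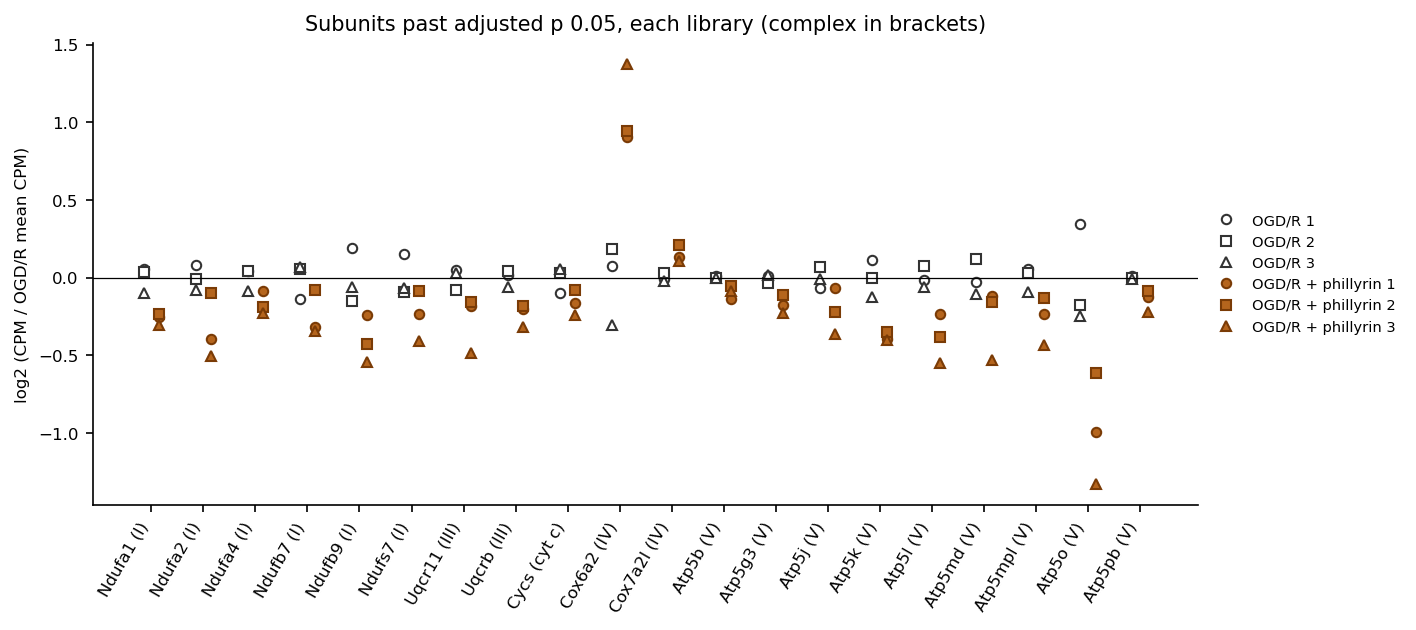
Log2 of each library's CPM over the OGD/R mean (vertical axis) for 20 of the 21 respiratory chain genes past the threshold, with open symbols for OGD/R and filled symbols for OGD/R with phillyrin, 3 libraries each. Phillyrin replicate 3 (filled triangle) is the lowest of all 6 libraries for 17 of the 18 genes that fell, and Cox6a2 lies above OGD/R in all 3 phillyrin libraries.

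Promoter windows of 4 of the ATP synthase genes that fell are shown, picked because they hold matches to motifs of factors known to drive respiratory chain genes. They come from RefSeq on build GRCm38.p6, run from 250 bases before to 50 bases after the transcript start and are written 5′ to 3′ on the gene's strand, all on the minus strand of the genome. Capitals mark matches to the NRF1 motif (the capitals in Atp5g3 and the first capitals in Atp5k), to CCGGAAG, the core of ETS sites such as those bound by GABP, and to AAGATGG, the core of the YY1 site, each searched on both strands, so that an ETS match can read CTTCCGG. Atp5g3 lies at chr2:73911277-73911576, Atp5k at chr5:108434350-108434649, Atp5md at chr19:47090598-47090897 and Atp5j at chr16:84834927-84835226.
Atp5g3: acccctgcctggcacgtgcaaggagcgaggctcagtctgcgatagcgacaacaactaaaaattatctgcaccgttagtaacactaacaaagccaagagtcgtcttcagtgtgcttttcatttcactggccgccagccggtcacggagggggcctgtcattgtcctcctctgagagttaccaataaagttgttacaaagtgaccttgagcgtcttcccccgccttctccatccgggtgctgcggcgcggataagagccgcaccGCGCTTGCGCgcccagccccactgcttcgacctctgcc
Atp5k: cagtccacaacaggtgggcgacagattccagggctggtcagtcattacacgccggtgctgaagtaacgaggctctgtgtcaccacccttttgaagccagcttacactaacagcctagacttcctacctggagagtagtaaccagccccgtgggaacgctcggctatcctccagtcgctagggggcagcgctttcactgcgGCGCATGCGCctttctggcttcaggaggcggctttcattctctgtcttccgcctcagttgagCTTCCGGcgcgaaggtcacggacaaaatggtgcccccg
Atp5md: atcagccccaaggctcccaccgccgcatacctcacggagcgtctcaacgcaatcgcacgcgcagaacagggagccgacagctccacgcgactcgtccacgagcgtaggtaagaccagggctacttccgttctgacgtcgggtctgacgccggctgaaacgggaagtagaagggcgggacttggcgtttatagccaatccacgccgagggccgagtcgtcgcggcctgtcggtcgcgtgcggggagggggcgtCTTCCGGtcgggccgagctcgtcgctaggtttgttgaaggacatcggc
Atp5j: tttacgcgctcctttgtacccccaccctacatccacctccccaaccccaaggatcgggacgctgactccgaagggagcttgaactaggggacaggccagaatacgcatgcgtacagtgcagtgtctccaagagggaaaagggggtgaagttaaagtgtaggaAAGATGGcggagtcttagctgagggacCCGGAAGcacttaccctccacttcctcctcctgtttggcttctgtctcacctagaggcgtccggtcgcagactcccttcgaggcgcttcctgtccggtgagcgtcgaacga
In Atp5g3 an NRF1 match began 12 bases after the start site. Atp5k held an NRF1 match 50 bases before the start and an ETS match 12 bases after it, and Atp5md held an ETS match 2 bases after it. The Atp5j window, which is the second of the 2 listed for the gene, held an ETS and a YY1 match 61 and 88 bases before its start. That window shares 247 bases with the window of Gabpa, the DNA-binding subunit of GABP, which is transcribed the other way, and the gene spans overlap in the table. Gabpa stood at 139 ± 3.94 and 159.7 ± 3.01 CPM (SD, n = 3 each) and rose (log2 fold change of 0.20 with an SE of 0.04, adjusted p = 0.000198 by edgeR), so the transcripts of this gene pair went in opposite directions.

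Windows were found for 72 of the 90 genes. An NRF1 match was present in 25.0% of them, an ETS match in 23.6% and a YY1 match in 15.3%, where the shares over the 27025 genes of the RefSeq table were 5.19%, 9.93% and 7.28%. Those 27025 genes include ones with too few reads here to be tested, and shares over the tested genes alone were not computed. Among the 14 genes that fell and had a window, 3 held an NRF1 match, 6 an ETS match and 3 a YY1 match. Among the 53 tested genes with a window that did not pass, the numbers were 14, 11 and 8. These matches are descriptions of the letters, were searched after the values had been seen, and show no binding.

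With Ndufa4 counted in complex I by its name, complex IV had no transcript among those that fell. Of its transcripts 2 rose, a muscle isoform and a supercomplex factor. Cox6a2 (ENSMUSG00000030785, chromosome 7, 127804607 to 127805559), the isoform of subunit VIa found in heart and skeletal muscle, had 2.59, 2.80 and 2.00 CPM under OGD/R alone and 4.62, 4.75 and 6.40 CPM when phillyrin was given. Each phillyrin library was above each OGD/R library, a 2.10-fold rise that was the largest change among the tested respiratory chain genes and passed in all 13 alternatives (log2 fold change of 1.07 with an SE of 0.20, adjusted p = 7.46e-05 by edgeR). Itgad, which overlaps it on the other strand, had 20 reads over all 6 libraries. Cox7a2l (ENSMUSG00000024248, chromosome 17, 83809347 to 83824759), a protein known for joining complexes III and IV into supercomplexes, had 103, 106 and 103 CPM under OGD/R alone and 114, 120.2 and 112 CPM when phillyrin was given. The groups did not overlap (log2 fold change of 0.15 with an SE of 0.05, adjusted p = 0.00843 by edgeR), but the call was lost when scaled by library size only (edgeR adjusted p = 0.0604) or without phillyrin replicate 2 (0.0543).

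The other 13 tested complex IV genes had log2 fold changes from -0.27 to 0.53, and none passed. The ends of this range were Cox5b-ps, a pseudogene by its symbol (SE 0.14), and the sparsely read Cox7b2 (SE 0.45). At an unadjusted p under 0.05, 1 of the complex IV genes was lower. Cox4i1, the usual form of the largest nuclear subunit, was at 94.8 ± 6.16 and 101 ± 7.49 CPM and passed only without phillyrin replicate 1 (edgeR adjusted p = 0.0336). Cox5a, the subunit beside the oxygen-reducing core, was at 10.7 ± 1.87 and 9.82 ± 0.869 CPM, Cox7a2 at 61.9 ± 3.13 and 61.1 ± 0.928 CPM and Cox8a at 67.3 ± 6.75 and 64.1 ± 7.47 CPM (SD, n = 3 each). The median log2 fold change of complex IV was 0.01, and it became -0.04 when scaled by library size only, where 1 member rose and 1 fell. Of all genes tested, 11.3% rose and 21.1% fell with that scaling.

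Several complex IV subunits exist as a general and a muscle or tissue form, and the general forms supplied nearly all reads here. FPKM, the read count scaled to the table's gene length and to the reads of the library, allows levels of different genes to be set side by side. Cox6a1, the general form, was at 86.7 ± 1.37 FPKM in OGD/R and 91.4 ± 2.21 FPKM with phillyrin, and the muscle form Cox6a2 at 3.68 ± 0.623 and 7.60 ± 1.36 FPKM (SD, n = 3 each). Cox6a2 thus reached 4.25% ± 0.742 of the Cox6a1 level in OGD/R and 8.35% ± 1.68 with phillyrin. Cox6a1 itself had a log2 fold change of 0.12 and missed the threshold (edgeR adjusted p = 0.0927). Cox7a1 had 2, 22 and 20 reads under OGD/R alone and 13, 13 and 15 when phillyrin was given, so that OGD/R replicate 1 stood apart, and its log2 fold change of 0.04 (SE 0.47) turned to -0.44 without that library and to -0.16 without phillyrin replicate 3. Cox8b, the muscle form of subunit VIII, had 0 reads, for which 0.0269 CPM over the 6 libraries is the upper limit. The lung and hypoxia form Cox4i2 had 8 reads in all. Cox6b2 and Cox8c, testis forms, had 0, and Cox7b2, also a testis form, had 70 and did not pass. At these depths a difference in the unread forms was not detectable.

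**Figure D3:**
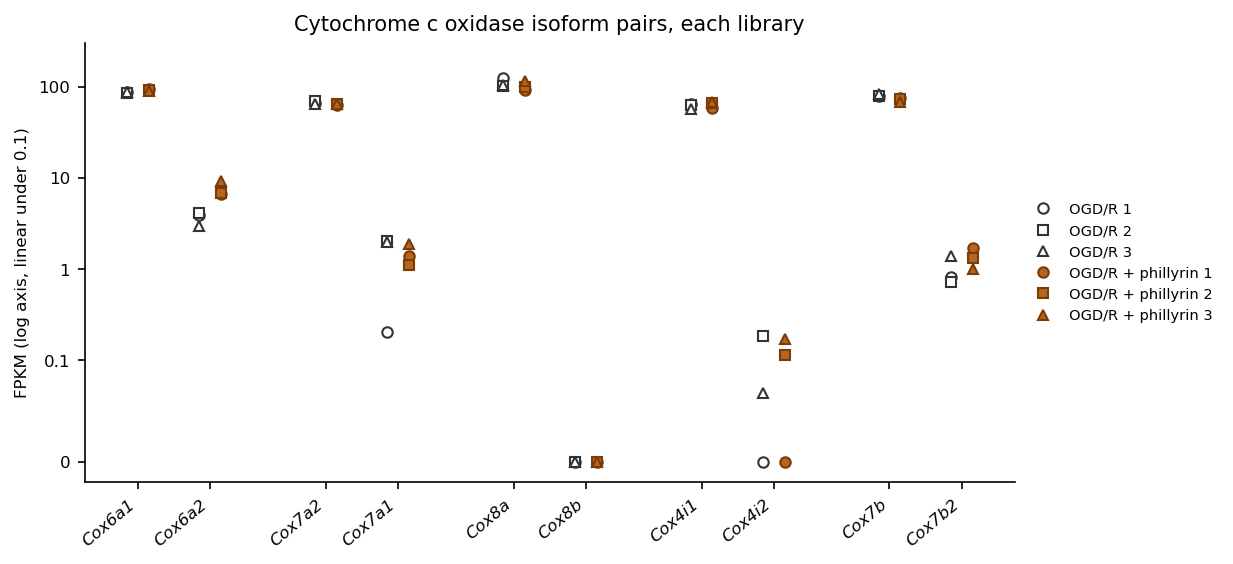
FPKM of 5 complex IV isoform pairs in each library (log axis, linear under 0.1), with the general form on the left of each pair and open symbols for OGD/R, filled for OGD/R with phillyrin. The general forms lie between 57.4 and 123 FPKM, all muscle or tissue forms lie below 10, Cox6a2 is higher with phillyrin and Cox8b is at 0.

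Complex I is the largest complex, with a hydrophilic arm that oxidises NADH and a membrane arm that pumps protons. Its summed nuclear transcripts were at 1585 ± 2.43 and 1565 ± 27.8 CPM (SD, n = 3 each), a difference of -1.27%, and 18.9% of its tested genes were called, less than the 31.7% of all genes. Among its 7 core subunits, which carry the flavin and the iron-sulfur clusters, 1 fell. Ndufs7, which holds the last iron-sulfur cluster before quinone, went from 30.1 ± 2.86 to 25.5 ± 2.82 CPM with overlapping groups (log2 fold change of -0.23 with an SE of 0.08, adjusted p = 0.0345 by edgeR), and its call was lost with DESeq2 and when OGD/R replicate 1 or either of phillyrin replicates 1 and 3 was left out. Ndufv1, which binds NADH and the flavin, and Ndufs1, the largest core subunit, did not pass (log2 fold changes 0.05 and -0.08).

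Of the 30 tested accessory genes of complex I, with Ndufa4 among them by its name, 5 fell and 0 rose. The 16.7% that fell was about the 15.6% of all genes tested, so the genes below are described one by one and not as a group. Ndufa2, an accessory subunit of the NADH-oxidising end, had 24.0, 22.6 and 21.5 CPM under OGD/R alone and 17.3, 21.2 and 16.0 CPM when phillyrin was given. Both groups were separate by a narrow gap, and phillyrin replicate 2 lay nearest to OGD/R (log2 fold change of -0.31 with an SE of 0.09, adjusted p = 0.0101 by edgeR). Ndufb9, of the membrane arm, had the largest fall (log2 fold change of -0.39 with an SE of 0.14, adjusted p = 0.0318 by edgeR) at a level of only 8.29 ± 1.04 and 6.29 ± 0.667 CPM (SD, n = 3 each). Ndufb7 and Ndufa1, also of the membrane arm, had log2 fold changes of -0.23 and -0.26. Ndufa4, named as a complex I gene but now known as a subunit of complex IV, had 95.4, 95.4 and 87.2 CPM under OGD/R alone and 87.4, 81.4 and 79.2 CPM when phillyrin was given. Phillyrin replicate 1 was within the OGD/R range (log2 fold change of -0.16 with an SE of 0.05, adjusted p = 0.0134 by edgeR). Counted in complex IV, it would be the one member there to fall. Each of these 5 calls was lost in 3 to 7 of the 13 alternatives, and without phillyrin replicate 3 or OGD/R replicate 1 only 1 complex I gene fell. Ndufa4l2, the hypoxia-induced relative of Ndufa4, had 5, 2 and 9 reads under OGD/R alone and 13, 6 and 7 when phillyrin was given and was not tested. Ndufa11 had the lowest estimate of complex I without passing (log2 fold change of -0.50 with an SE of 0.23, adjusted p = 0.0982 by edgeR), with 3.78 ± 0.844 and 2.62 ± 0.859 CPM. The copy Ndufb11b had 0 reads.

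Complex II, the succinate dehydrogenase that also works in the citric acid cycle, showed no call, and 0 of its 4 genes had an unadjusted p under 0.05 with edgeR. DESeq2 and limma-voom called 0 as well. The flavoprotein Sdha was at 158 ± 3.55 and 150.3 ± 5.59 CPM and the iron-sulfur subunit Sdhb at 60.7 ± 2.43 and 63.4 ± 4.30 CPM (SD, n = 3 each). The membrane anchors Sdhc and Sdhd were at 91.2 ± 0.629 and 88.9 ± 3.62 CPM and 83.5 ± 3.83 and 83.8 ± 3.99 CPM. The log2 fold changes ran from -0.07 (SE 0.04) to 0.06 (SE 0.06). Sdha passed as lower when scaled by library size only (edgeR adjusted p = 0.0288).

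In complex III, 2 of the 9 tested genes fell, 22.2% against 15.6% of all genes tested, and both were small subunits. Uqcrb, a subunit near the quinone site, had 35.5, 36.2 and 33.7 CPM under OGD/R alone and 30.5, 31.0 and 28.2 CPM when phillyrin was given. Uqcr11, the smallest subunit, had 36.5, 33.4 and 36.1 CPM under OGD/R alone and 31.2, 31.7 and 25.3 CPM when phillyrin was given. Both sets of phillyrin values lay below OGD/R, and phillyrin replicate 3 was lowest (edgeR adjusted p = 0.0122 and 0.0101, log2 fold changes -0.23 and -0.25, SE 0.07 and 0.08). Without that library neither passed (0.0576 and 0.103), and Uqcrb was also lost without OGD/R replicate 2. The catalytic subunits did not pass: Uqcrfs1, the Rieske iron-sulfur protein, was at 81.3 ± 1.26 and 83.2 ± 2.24 CPM and Cyc1, cytochrome c1, at 113 ± 3.86 and 107 ± 7.89 CPM (SD, n = 3 each). Uqcrc1, a core protein that faces the matrix, had a log2 fold change of -0.02. The small subunits Uqcr10, Uqcrh and Uqcrq did not pass either (log2 fold changes -0.14, -0.05 and 0.04, edgeR adjusted p = 0.0803, 0.509 and 0.593). Cyc1 passed as lower without phillyrin replicate 2 (edgeR adjusted p = 0.031) and when scaled by library size only (0.0494).

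Cycs (ENSMUSG00000063694, chromosome 6, 50539543 to 50543518), cytochrome c, which carries electrons from complex III to complex IV and is also released during cell death, had 195, 213 and 217 CPM under OGD/R alone and 186, 197 and 177 CPM when phillyrin was given. Phillyrin replicate 2 was above the lowest OGD/R library, so the groups overlapped while the mean fell by 10.4% (log2 fold change of -0.16 with an SE of 0.04, adjusted p = 0.0049 by edgeR). Leaving out OGD/R replicate 3 ended the call, at an adjusted p of 0.0618 with edgeR, and it held in the other 12 alternatives.

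Summed over all their nuclear genes, complex V transcripts went from 3517 ± 23.1 to 3310.3 ± 95.9 CPM (SD, n = 3 each), a difference of -5.87%. Complex II was at 394 ± 3.24 and 386 ± 8.45 CPM, complex III at 684 ± 6.29 and 669.8 ± 14.8 CPM and complex IV between 851 and 875 CPM in OGD/R and between 860.3 and 884 CPM with phillyrin. Such sums follow the most abundant genes. The median over genes gives each gene the same weight: relative to the OGD/R mean, the median log2 CPM of complex V was -0.13, -0.06 and -0.23 in phillyrin replicates 1, 2 and 3. For complex I these medians were -0.03, -0.04 and -0.06, for complex IV -0.01, 0.05 and 0.10, and over all genes tested -0.00282, -0.0113 and -0.0105. Phillyrin replicate 3 was the lowest of the 6 libraries for 13 of 17 complex V genes and for 3 of 15 complex IV genes, against 22.3% of all genes tested. The 12 tested mitochondrially encoded mRNAs had medians of 0.15, 0.13 and 0.39, above OGD/R and highest in the same library, although mt-Nd4l and mt-Atp6 stood at log2 fold changes of -0.07 and 0.01. Their part in the result was not tested.

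**Figure D4:**
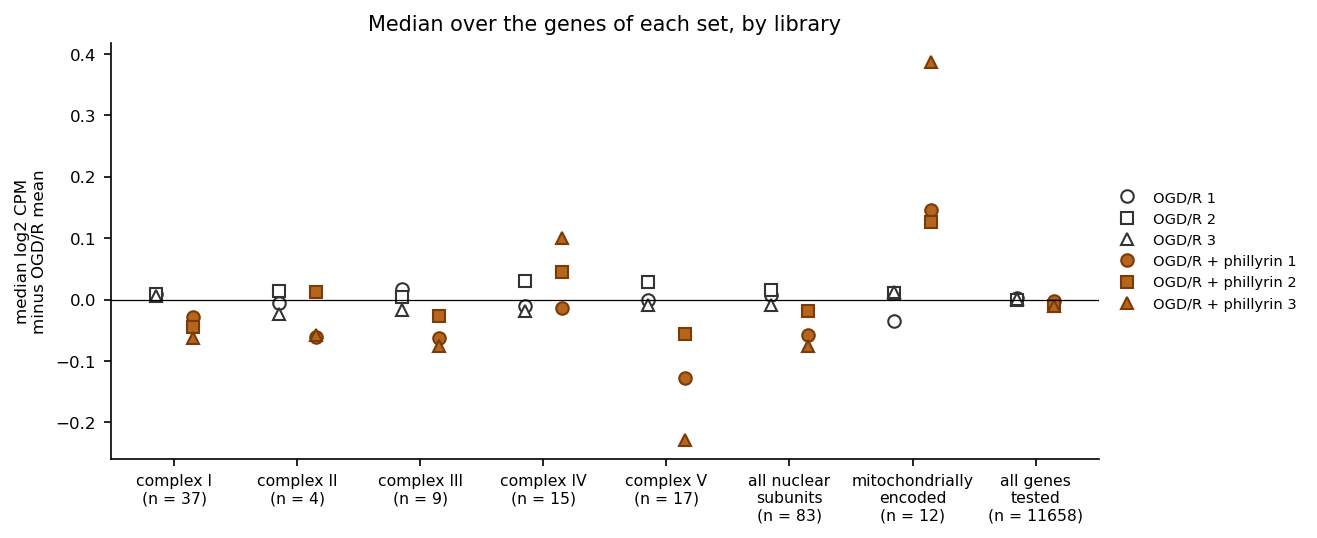
Median over the genes of each set of log2 CPM minus the OGD/R mean of each gene (vertical axis), by library, with open symbols for OGD/R and filled symbols for OGD/R with phillyrin. Complex V lies below 0 in all 3 phillyrin libraries and lowest in replicate 3, where the mitochondrially encoded mRNAs are highest at 0.39.

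Within a complex, nuclear and mitochondrial subunits could be set side by side. For complex V, mt-Atp6 stood at 45.0 ± 3.17 and 45.3 ± 1.17 CPM (log2 fold change 0.01, edgeR adjusted p = 0.955). For complex IV, mt-Co1, which had the most reads of the mitochondrial mRNAs, stood at 13012, 13396 and 13349 CPM under OGD/R alone and 15201, 15594 and 19036 CPM when phillyrin was given. Its groups did not overlap, but it missed the threshold (log2 fold change of 0.33 with an SE of 0.10, adjusted p = 0.0633 by edgeR). The other complex IV mRNAs, mt-Co2 and mt-Co3, had log2 fold changes of 0.14 and 0.48, neither past the threshold. For complex III, mt-Cytb, its one mitochondrial subunit, was called as higher (log2 fold change of 0.16 with an SE of 0.04, adjusted p = 0.000763 by edgeR), the one such call among the 12. The number called as higher was 3 with DESeq2 and 7 with limma-voom, and 6 without phillyrin replicate 3. Of all genes tested, 14.7%, 15.7% and 15.2% were called higher in those fits, and 16.0% in the main fit. Leaving out OGD/R replicate 2 gave 3, as did leaving out phillyrin replicate 1, where 12.2% and 16.1% of all genes were higher. Of the complex I subunits, mt-Nd4 had 1869, 1867 and 1892 CPM under OGD/R alone and 2018, 2047 and 2475 CPM when phillyrin was given, and its groups did not overlap, but the adjusted p was 0.0963 with edgeR. The groups of mt-Nd2, mt-Nd5 and mt-Nd6 did not overlap either, all with phillyrin higher, at log2 fold changes of 0.39, 0.30 and 0.32 (edgeR adjusted p = 0.0899, 0.134 and 0.288). Those of mt-Nd1, mt-Nd3 and mt-Nd4l overlapped. Over all genes tested, 21.5% had groups that did not overlap with phillyrin higher.

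Levels per length ranged widely among genes whose proteins occur in fixed ratios. Atp5b led at 357 ± 2.49 FPKM in OGD/R, followed by Atp5a1 at 196 ± 3.96 and Atp5c1 at 127 ± 2.50 (SD, n = 3), and these neighbours lay apart by more than their spread. Cox6b1 at 125 ± 6.55 did not differ from Atp5c1 beyond the spread. By complex, the median level was 62.1 FPKM for complex IV, 53.4 for complex III, 33.7 for complex II, 31.9 for complex V and 23.5 for complex I. Apart from tissue forms, the lowest were Atp5o at 0.898 ± 0.213, Ndufb2 at 1.54 ± 0.131 and Atp5l at 2.49 ± 0.120 FPKM. FPKM uses the gene length in the table, which is 6443 bases for Atp5l. The coding transcript taken for it from GENCODE M21 measures 544 bases and was not chosen by its reading frame. The level per length is understated wherever a shorter transcript supplies the reads. The tested respiratory chain genes were short, with a median table length of 1587 bases against 4592 over all genes tested, and those that fell had a median of 1845.

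Copies and overlaps limit which reads can be assigned. Of the 82 tested genes with a coding transcript in GENCODE M21, 24 shared at least 150 bases at 95% identity or more with another annotated gene, mostly pseudogenes. Only 1 coding transcript per gene was searched, the shortest one listed, such as 332 bases for Ndufs1, whose table length is 8086. Copies of the unsearched parts were missed, so the numbers of copies and of genes with a copy are minimums. Of these 24, 7 fell and 1 rose, and of the 58 others 11 fell and 2 rose. Atp5l had 9 such copies, Cycs and Atp5h had 4, and Atp5md and Uqcrb had 3. In complex V 8 of 17 genes had a copy and in complex I 6 of 36. Cox5b and Cox5b-ps are nearly identical, so their levels of 65.8 and 8.93 CPM in OGD/R may be split arbitrarily. On the other strand 25 of the 90 genes overlapped another gene, 7 of the 21 called genes among them, and 6 overlapped one on the same strand. Of the partners not yet named, Tmco6 (opposite Ndufa2), Taf5 (opposite Atp5md) and Gm10767 (opposite Uqcrb) did not pass, and Gm49356, on the strand of Ndufb9, had 0 reads. How reads with several alignments and reads on the other strand were counted is not given in the sources used here.

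Other genes of the pathway moved little or in both directions. Of 56 tested assembly factors, the proteins that build the complexes without staying in them, 1 rose and 1 fell, both of complex I: Ndufaf5, a hydroxylase that acts on Ndufs7, rose (log2 fold change of 0.34 with an SE of 0.11, adjusted p = 0.0163 by edgeR) and Ndufaf7, a methyltransferase, fell (log2 fold change of -0.26 with an SE of 0.10, adjusted p = 0.0413 by edgeR). With DESeq2 or limma-voom 0 of them fell, where 12.6% and 15.6% of all genes did. The assembly factors of complexes II, III, IV and V had 0 calls among 3, 6, 22 and 7 tested. At an assembly median of -0.04 and a share of 3.57% called, this list was far below the 31.7% of all genes tested. In ubiquinone synthesis and the enzymes that feed ubiquinone, 4 of 18 fell and 1 rose, where 15.6% and 16.0% of all genes tested did. Gpd2, the glycerol phosphate dehydrogenase that hands electrons to ubiquinone, went from 185 ± 4.36 to 146 ± 8.04 CPM (log2 fold change of -0.34 with an SE of 0.04, adjusted p = 3.70e-08 by edgeR), and Sqor, which oxidises sulfide, from 19.6 ± 1.59 to 28.4 ± 1.81 CPM (log2 fold change of 0.53 with an SE of 0.08, adjusted p = 3.99e-06 by edgeR). Coq2, Coq7 and Pdss1, enzymes of ubiquinone synthesis, were the others that fell, with log2 fold changes of -0.28, -0.36 and -0.26.

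Among 23 tested regulators of respiratory chain and mitochondrial DNA expression, 5 rose and 4 fell, shares near the 16.0% and 15.6% of all genes tested, so the counts do not set this list apart. All 3 GABP genes rose: Gabpb2 had 173, 169 and 174 CPM under OGD/R alone and 212, 199 and 204 CPM when phillyrin was given (log2 fold change of 0.25 with an SE of 0.04, adjusted p = 3.40e-06 by edgeR), and Gabpa and Gabpb1 had log2 fold changes of 0.20 and 0.20. Yy1 (log2 fold change of 0.22 with an SE of 0.04, adjusted p = 6.07e-05 by edgeR) and Nrf1 (log2 fold change of 0.17 with an SE of 0.06, adjusted p = 0.0199 by edgeR), which encode factors known to bind respiratory chain promoters, also rose. Those that fell were the coactivator Ppargc1b, the mitochondrial RNA polymerase Polrmt, Mterf2 and Myc, with log2 fold changes of -0.83, -0.20, -0.57 and -0.16. Without OGD/R replicate 2, 3 regulators rose, and scaled by library size only 3 rose as well. Of all genes tested, 12.2% and 11.3% rose in those fits. Whether these transcripts and those of the respiratory chain are linked was not tested.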

How the data were processed

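Counts of poly(A)-selected RNA were read from 1 deposited table of 6 libraries with 150-base paired reads. Columns were matched by sample title, since the description field of the labels names 1 column for all 3 phillyrin libraries. The submitters' processing notes list featureCounts 2.0.3, HISAT2 2.2.1, DESeq2 1.34.0 and Trimmomatic 0.39, with build GRCm39. The sources used here do not give their settings, annotation release or strand option. The authors deposited raw read counts and FPKM values, per the file headers. FPKM was used only to compare levels between genes. The 51 rows without a symbol took at most 0.00743% of a library.

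The members and lists were chosen with earlier results of these data known. Counts of all genes were filtered with filterByExpr, scaled with TMM factors and tested with edgeR 4.0.16 (quasi-likelihood, robust, two-sided, R 4.3.3). Adjustment was by Benjamini-Hochberg over 11658 genes, with no covariate, since all libraries carry the same batch label. The SE is the size of the log2 fold change over the square root of F. CPM used TMM-scaled library sizes, and log2 CPM a prior count of 2. A count of 0 was given a limit of 3 counts, which covers counting error only. The test was checked on simulated data. Named were all members past the threshold, a set of core subunits and isoforms, and up to 4 called genes per other list. 1 complex I gene is counted but not reported here by name. Further genes of the lists and complexes were named after their values were seen. Alternatives were DESeq2 1.42.0, limma-voom (limma 3.58.1), scaling with RLE factors or by library size only, no low-count filter, a mean of at least 1 CPM, the replicate number as a block and the omission of each library. Copies were sought with blastn 2.17.0 among GENCODE M21 transcripts of build GRCm38, whose coordinates were not used. The query was 1 coding transcript per gene, the shortest one listed. Gene positions come from the table and are taken to be GRCm39.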

Additional observations from a re-analysis of the deposited data

How the results depend on the processing

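Of the 21 calls, those of Cox6a2, Atp5g3, Atp5pb and Atp5l held in all 13 alternatives, and over 51 named genes tested 577 of 662 gene and setting pairs kept direction and call, 67 lost the call, 7 gained it and 11 changed sign. Scaled by library size only, 1 gene rose in all (complex I 0, complex IV 1), 1 fell in complex II, 4 in complex III and 1 in complex IV, 4 assembly factors fell, 3 regulators rose, and the median log2 fold change was -0.0963 over all members, -0.0681, -0.0572, -0.0929 and -0.0380 for complexes I to IV. That scaling moved the median of all genes from -0.01 to -0.06, with 11.3% of them called higher and 21.1% lower. In complex I, 2 rose with RLE factors or with no low-count filter, 0 rose with DESeq2 or limma-voom, and 2 fell with DESeq2. Of the assembly factors, 2 rose with RLE factors or no low-count filter and 0 fell with DESeq2 or limma-voom. Mitochondrially encoded mRNAs that rose numbered 3 with DESeq2, 7 with limma-voom and 3 with no low-count filter. Of all genes tested, 14.7%, 15.7% and 12.6% rose in those fits, and 16.9% with RLE factors. With DESeq2 12.6% of all genes fell, and with limma-voom 15.6%. With a mean of at least 1 CPM the complex IV median was -0.0215. The cause was not tested, except that fewer samples enter when a library is left out.

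When each library was left out in turn, the number of members that rose ran from 2 to 6 and that fell from 7 to 19. By complex, those that fell ran from 1 to 4 in complex I, 0 to 3 in complex III, 0 to 1 in complex IV, 5 to 11 in complex V and 0 to 1 for Cycs, and those that rose from 0 to 3 in complex I and 1 to 3 in complex IV. Assembly factors ran from 0 to 2 higher and 0 to 2 lower, mitochondrially encoded mRNAs from 1 to 6 higher and regulators from 3 to 6 higher. The complex IV median ran from -0.0297 to 0.0408 and the complex V median from -0.197 to -0.0922. Among the named genes, sign changes were limited to genes that did not pass: Sdhd (-0.0366) and Uqcrfs1 (-0.0099) with library size scaling, and, over the libraries left out, Sdhd (-0.0216 to 0.0446), Uqcrc1 (-0.0390 to 0.0112), Cox7a2 (-0.0488 to 0.0218), Cox8a (-0.159 to 0.00984) and Cox7a1 (-0.443 to 0.402).

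With the replicate number as a block, 3 members rose and 20 fell (7 in complex I and 10 in complex V), 2 assembly factors rose and 2 fell, and 6 mitochondrially encoded mRNAs rose. Of all genes tested, 16.0% rose and 15.8% fell in that fit. Same-numbered libraries of both groups did not deviate together (correlations across genes of 0.00278, 0.00561 and 0.00322), although each correlated best with its own number, so the numbers were not taken as pairs. Depth limited Cox7a1, Cox7b2 and Atp5o, which had few reads.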

Other observations

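Among proteins of the chain that the naming rule leaves out are Ndufab1, the acyl carrier subunit of complex I, and Atpif1, the inhibitor of the ATP synthase. Ndufab1 stood at 20.1 ± 2.35 and 18.4 ± 0.895 CPM and Atpif1 at 3.79 ± 0.819 and 3.12 ± 0.345 CPM (SD, n = 3 each). Neither passed the threshold (log2 fold change of -0.13 with an SE of 0.09, adjusted p = 0.314 by edgeR for the first and log2 fold change of -0.27 with an SE of 0.21, adjusted p = 0.342 by edgeR for the second).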
